A study of Drosophila melanogaster with 8 samples.

Results

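Aminoacyl-tRNA synthetases are the enzymes that join each amino acid to its matching tRNA, so every protein made in a cell depends on them. Animal cells keep a cytosolic set for nuclear-encoded proteins and a mitochondrial set, also encoded in the nucleus, for the few proteins made inside mitochondria. For some amino acids, such as glycine and lysine, a single animal gene serves both compartments. Macrophages (hemocytes) of the fly embryo are migratory and phagocytic cells that also secrete much of the embryonic basement membrane.

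The genes were taken by name from the 17494 genes of the deposited tables, as any symbol of the form XxxRS, GluProRS or an older Aats name. This gave 33 genes, 18 cytosolic and 15 mitochondrial, the latter marked by names ending in -m. The 2 subunits of cytosolic phenylalanyl-tRNA synthetase (alpha-PheRS and beta-PheRS) and the seryl-tRNA synthetase relative Slimp fall outside that form and are described as partners. The 33 genes lie on 5 chromosome arms, with 6 on 2L, 8 on 2R, 10 on 3L, 6 on 3R and 3 on X.

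RNA was measured in macrophages that carry 3xmCherry and were sorted by fluorescence from dissociated stage 11 Drosophila melanogaster embryos kept at 29°C. By the sample titles, 4 libraries are wild type (WT) and 4 are CG9005 mutant, and both groups carry the mCherry label. The sources used here do not give the allele, the driver of the label or the number of embryos behind a library, and the genotype field is the same for both groups. By its title, the series is about a program that raises mitochondrial function in macrophages invading tissue.

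Values are transcripts per 1000000 (TPM), a level per transcript length that allows genes to be compared within a library. Each library rested on 15782570 to 18942786 reads, recovered from the TPM values and exon lengths. CG9005 mRNA itself stood at 87.8 ± 18.4 TPM in WT and 89.1 ± 12.2 TPM in mutant libraries (mean ± SD, 4 libraries a group), so its level does not check the labels. The macrophage markers NimC4 (3603 to 7492 TPM) and crq (314 to 584 TPM), both receptors for the uptake of dying cells, were high in all 8 libraries. Lowest by mean of the 11 macrophage markers were srp (15.0 to 38.6 TPM), drpr (19.6 to 44.6 TPM) and Pvr (34.8 to 69.6 TPM). The crystal cell marker PPO2 (375 to 752 TPM) and the neuronal marker elav (42.7 to 69.4 TPM) were present too, while the crystal cell marker lz (1.01 to 2.70 TPM) and the neuronal markers Syt1 (0 to 1.92 TPM) and nSyb (0.118 to 2.97 TPM) were low. The muscle markers Mef2 and bap ranged over 11.9 to 21.3 and 2.86 to 16.3 TPM, with sls and Mhc at most at 3.67 and 2.80 TPM. The gut markers fkh and GATAe ranged over 2.69 to 14.1 and 1.86 to 4.97 TPM. The tracheal marker btl ranged over 1.86 to 4.30 TPM, with trh at most at 1.56 TPM. The germline markers vas, nos and osk reached at most 0.344, 0.995 and 0.792 TPM. The fat body markers Lsp2 and Fbp1 were listed at 0, and the glial marker repo reached at most 1.66 TPM. Of the 11 macrophage markers 1 was called between genotypes, against 1.67% of all tested genes. This was Sr-CI, higher in every mutant library (394 ± 20.7 TPM in WT, 739 ± 29.1 TPM in the mutants, adjusted p = 0.00082 by limma). Of the 3 crystal cell markers, all with estimates below 0, PPO1 was called, lower in every mutant library (61.8 ± 9.85 TPM in WT, 16.8 ± 6.73 TPM in the mutants, adjusted p = 0.0028 by limma). Summed levels, which NimC4 and PPO2 dominate, were 5452 to 9204 TPM in WT and 7090 to 8871 TPM in mutant libraries for the macrophage markers, and 444 to 822 TPM and 404 to 536 TPM for the crystal cell list. The part of these cells in the synthetase levels was not tested. In such sorted pools, fewer cells of a type and less RNA per cell cannot be told apart.

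Most cytosolic synthetases lay above the typical gene in these macrophages, with CysRS, ValRS and GluProRS below it. Their mean levels over the 8 libraries ran from 4.21 TPM for CysRS to 89.6 TPM for TyrRS, with a median of 21.9 TPM. Of the 18, 15 lay above the middle of the 7827 tested genes, whose median mean level was 12.7 TPM. All 18 together took 464 to 596 TPM of a library, or 0.0464% to 0.0596% of all transcripts.

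TyrRS, which charges tyrosine, held 96.6, 94.3, 98.7 and 88.7 TPM in the WT libraries and 73.9, 90.2, 85.4 and 89.4 TPM in mutant libraries. SerRS, which charges serine, held 53.3, 93.1, 67.2 and 75.3 TPM in WT and 72.4, 87.3, 87.5 and 58.4 TPM in mutant libraries. TrpRS, which charges tryptophan, held 24.4, 41.7, 43.9 and 63.0 TPM in WT and 45.8, 53.9, 52.2 and 50.9 TPM in mutant libraries. Of these genes, TyrRS varied least among the WT libraries (SD 4.32 TPM). SerRS and TrpRS spread over SDs of 16.6 and 15.8 TPM, with WT replicate 1 the lowest library for both.

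At the other end stood CysRS, which charges cysteine, with 2.94, 5.60, 1.88 and 6.68 TPM in WT and 5.85, 3.32, 3.54 and 3.91 TPM in mutant libraries. ValRS, which charges valine, held 5.16, 10.4, 5.94 and 9.27 TPM in WT and 12.4, 7.99, 13.3 and 12.3 TPM in mutant libraries. GluProRS, a fused enzyme that charges both glutamate and proline, held 9.96, 9.80, 8.53 and 9.84 TPM in WT and 11.0, 7.94, 12.0 and 7.82 TPM in mutant libraries. CysRS is thus the lowest cytosolic member and rests on 50 to 203 reads per library, while TyrRS rests on 1687 to 2488.

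The remaining 12 cytosolic genes formed a gradual series without a gap. AspRS (mean 42.6 TPM), GlyRS (36.9 TPM), GlnRS (36.3 TPM), ThrRS (35.9 TPM) and LysRS (29.6 TPM) charge aspartate, glycine, glutamine, threonine and lysine. They were followed by ArgRS (22.3 TPM), LeuRS (21.6 TPM), IleRS (21.2 TPM), AsnRS (19.2 TPM) and MetRS (18.7 TPM). AlaRS (17.8 TPM) and HisRS (15.5 TPM) came last of these. The libraries of neighbours in this order overlap throughout, for example AspRS at 34.4 to 56.1 TPM and GlyRS at 18.8 to 44.2 TPM. WT replicate 1 was the lowest of the 8 libraries for 8 of the 18 cytosolic genes and the highest for none.

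**Figure D1:**
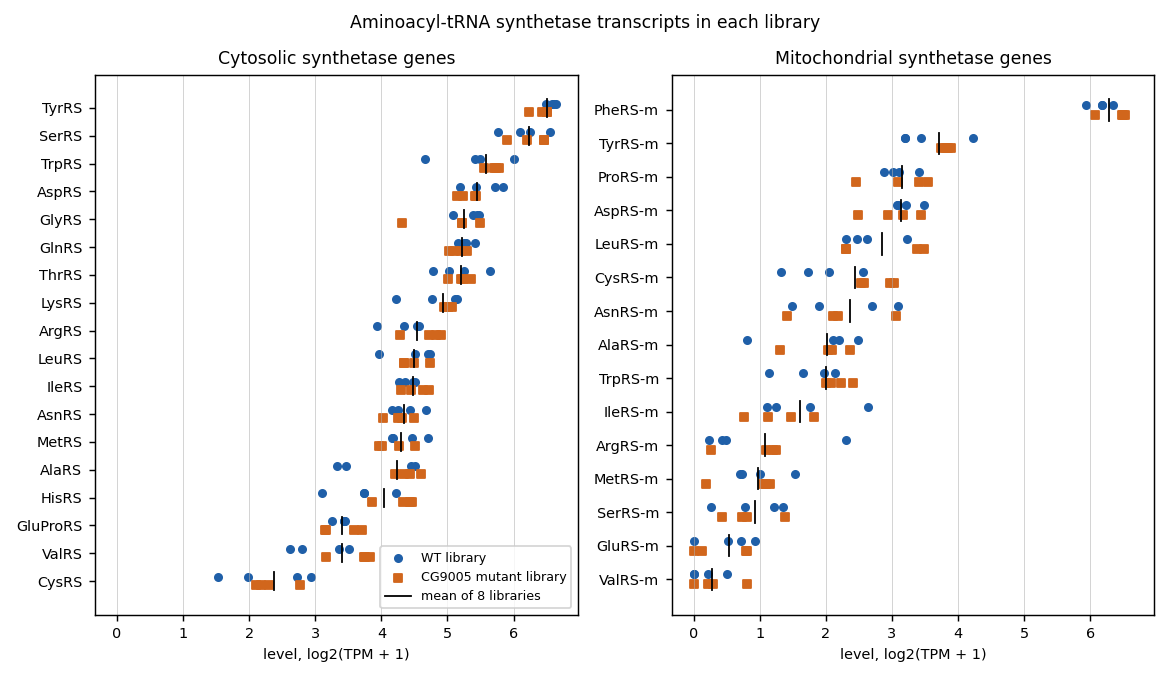
Level of each synthetase gene in each library as log2(TPM + 1), with WT libraries as circles, CG9005 mutant libraries as squares and the mean of 8 libraries as a vertical bar. The cytosolic genes form a continuous series from CysRS to TyrRS, while PheRS-m stands far above the other 14 mitochondrial genes.

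Synthetases fall into a pair of unrelated structural classes. The 9 cytosolic class I genes had a median level of 21.6 TPM and the 8 class II genes one of 32.7 TPM, with GluProRS belonging to both. In mammals, part of the cytosolic set sits in a multisynthetase complex, namely the enzymes for Arg, Asp, Gln, Glu and Pro, Ile, Leu, Lys and Met. The 8 fly genes of that set ran from 9.61 to 42.6 TPM (median 21.9 TPM) and the other 10 cytosolic genes from 4.21 to 89.6 TPM (median 27.6 TPM). The 3 highest cytosolic genes, TyrRS, SerRS and TrpRS, are all outside that set.

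The mitochondrial synthetases were low, with 1 exception. Their median level was 3.03 TPM, and 14 of the 15 lay below the middle of the tested genes. The exception was PheRS-m, which charges phenylalanine in mitochondria and held 71.3, 80.2, 71.2 and 60.3 TPM in WT and 88.8, 89.0, 66.0 and 90.9 TPM in mutant libraries. It was the second highest of all 33 genes, and its libraries overlapped those of TyrRS and SerRS. The other 14 mitochondrial genes never passed 17.8 TPM in any library. PheRS-m alone made up 51.2% to 65.3% of the summed mitochondrial synthetase TPM of a library. The gene (2R, 13968308 to 13969902, plus strand, BDGP6) shares no exon base with another annotated gene, and its values rest on 1140 to 1940 reads per library.

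After PheRS-m came TyrRS-m, the tyrosine enzyme, with 8.17, 17.8, 9.87 and 8.17 TPM in WT and 12.4, 13.4, 13.8 and 13.1 TPM in mutant libraries. ProRS-m, the proline enzyme, held 7.66, 9.59, 7.11 and 6.38 TPM in WT and 9.66, 4.49, 10.7 and 7.55 TPM in mutant libraries. The mutant libraries lay within the WT range for TyrRS-m and on both sides of it for ProRS-m. AspRS-m (mean 7.82 TPM), LeuRS-m (6.19 TPM), CysRS-m (4.46 TPM), AsnRS-m (4.17 TPM), AlaRS-m (3.03 TPM) and TrpRS-m (2.99 TPM) followed.

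Among the tested mitochondrial genes the lowest were those for isoleucine, arginine and methionine. IleRS-m held 1.16, 1.37, 2.38 and 5.203 TPM in WT and 1.18, 0.695, 1.79 and 2.52 TPM in mutant libraries. ArgRS-m held 0.175, 3.93, 0.402 and 0.352 TPM in WT and 0.197, 1.38, 1.14 and 1.30 TPM in mutant libraries. MetRS-m held 0.669, 1.01, 0.619 and 1.89 TPM in WT and 0.144, 1.13, 1.22 and 1.06 TPM in mutant libraries. Single libraries shape these means, since ArgRS-m in WT rests on replicate 2 for most of its 1.22 TPM.

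SerRS-m, GluRS-m and ValRS-m did not reach 1 TPM in 4 libraries and were not tested. SerRS-m lay between 0.202 and 1.61 TPM in the 8 libraries. GluRS-m, the glutamate enzyme, was listed at 0 in WT replicate 3 and mutant replicate 2 and reached 0.902 TPM at most. ValRS-m was listed at 0 in WT replicates 1 and 4 and mutant replicate 1, with a mean of 0.215 TPM, a maximum of 0.748 TPM and at most 34 reads. A count of 0 there allows up to 0.0634, 0.0744 and 0.0715 TPM (3 reads per library), so these transcripts were at the edge of detection, not shown to be absent. Floors and recovered reads cover counting error only.

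For 12 amino acids a mitochondrial gene and a cytosolic gene serving that amino acid alone could be set side by side. Glutamate and proline were left out, since GluProRS serves both. GluProRS had a mean of 9.61 TPM (7.82 to 12.0 TPM), against 7.90 TPM for ProRS-m (4.49 to 10.7 TPM) and 0.445 TPM for GluRS-m. Phenylalanine was left out by the naming rule. The cytosolic gene was higher in all 8 libraries for 11 of the 12. The ratio of mean TPM ran from 3.49 for leucine, 4.60 for asparagine and 5.44 for aspartate to 44.6 for valine and 82.9 for serine. SerRS at 74.3 TPM thus contrasted with SerRS-m at 0.896 TPM, the widest gap, while TyrRS exceeded TyrRS-m 7.42-fold. These ratios compare genes within the same libraries and carry no test, since genes are not replicates.

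Cysteine was the exception. CysRS and CysRS-m had means of 4.21 and 4.46 TPM, and the cytosolic gene was the higher in 3 of 8 libraries, all of them WT. The ratio of mean TPM was 1.44 in WT and 0.698 in mutant libraries, a difference that was not tested. Both genes of this amino acid were low, with 39 to 194 reads per library for CysRS-m.

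**Figure D2:**
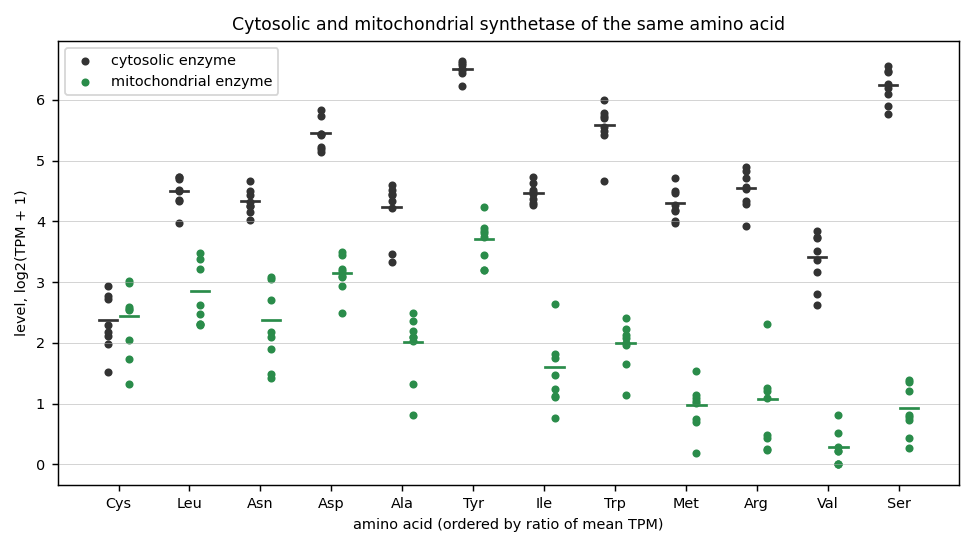
Levels, as log2(TPM + 1), of the cytosolic and mitochondrial gene for each of the 12 amino acids set side by side. Each library is 1 point and the mean of 8 libraries is a line. Glutamate and proline, both served by GluProRS, and phenylalanine are not shown. Among these 12, only for cysteine do the libraries of both genes overlap, and the gap is widest for serine.

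Summed over the sets, the cytosolic genes exceeded the mitochondrial ones by 4.53 ± 0.707 in WT and 3.97 ± 0.461 in mutant libraries (ratio of summed TPM, SD, n = 4 each). The cytosolic sum holds no phenylalanine enzyme, since alpha-PheRS and beta-PheRS fall outside the naming rule, while the mitochondrial sum includes PheRS-m. Without PheRS-m the ratio was 10.8 ± 1.49 in WT and 9.88 ± 1.43 in mutant libraries. Over the 12 amino acids set side by side above it was 8.95 ± 0.960 in WT and 8.16 ± 1.04 in mutant libraries. Those 12 leave out GluProRS, GluRS-m and ProRS-m. The summed cytosolic level was 464, 591, 547 and 596 TPM in the WT libraries and 516, 568, 584 and 550 TPM in mutant libraries. The mutant libraries all fell within the WT range. The summed mitochondrial level was 116, 146, 120 and 108 TPM in WT and 144, 136, 129 and 153 TPM in mutant libraries. Mutant libraries were higher on average but overlapped WT replicate 2, and PheRS-m supplied 70.7 TPM of the WT mean and 83.7 TPM of the mutant mean. The 37 genes of the mitochondrial genome, which include the tRNAs these enzymes charge, were listed at 0 in every library.

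None of the 30 tested synthetase genes passed the test between WT and CG9005 mutant macrophages. The test was limma on log2(TPM + 1), run over the 7827 genes that reached 1 TPM in 4 or more libraries, with Benjamini-Hochberg adjustment and a threshold of 0.05. It called 0 of 30 members, where it called 1.67% of all tested genes (131), 0.882% as higher and 0.792% as lower. The count over all genes was itself unstable, at 52 with the replicate number as a block, 9 with the stage field as a covariate, 76 with no filter on low values, and 71 to 110 with 1 library left out (71 to 74 when WT replicates 1 and 2 and mutant replicates 2 and 4 were dropped in turn, and 86 for WT replicate 4). Array weights and median centring gave the highest counts, 178 and 136. At an unadjusted p under 0.05 the main test picked out 1 member, CysRS-m, against 12.1% of all tested genes. With limma's voom on the recovered reads the count was also 0 of 30. The groups overlapped for every tested member, where they did not overlap for 7.77% of all tested genes. A count of 0 is near what the background share gives for 30 genes and is not by itself a result about this family.

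The log2 differences of the 30 tested genes (mutant minus WT, log2(TPM + 1) scale) ran from −0.39 for IleRS-m to 0.87 for CysRS-m. The median was 0.04 for the 18 cytosolic genes and 0.07 for the 12 tested mitochondrial genes, against −0.06 for all tested genes. Of the 30, 20 were above 0 (66.7%), against 41.7% of all tested genes. The 95% interval lay within 1 unit of 0 on this scale for 21 of the 30 (70.0%), against 58.8% of all tested genes. This held for 15 of the 18 cytosolic and 6 of the 12 tested mitochondrial genes, so the others could differ by more. For low genes 1 unit on the log2(TPM + 1) scale spans more than a doubling or a halving of the transcript, as for MetRS-m (interval −0.95 to 0.71, WT mean 1.05 TPM), so the mitochondrial count does not bound the fold of such genes.

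**Figure D3:**
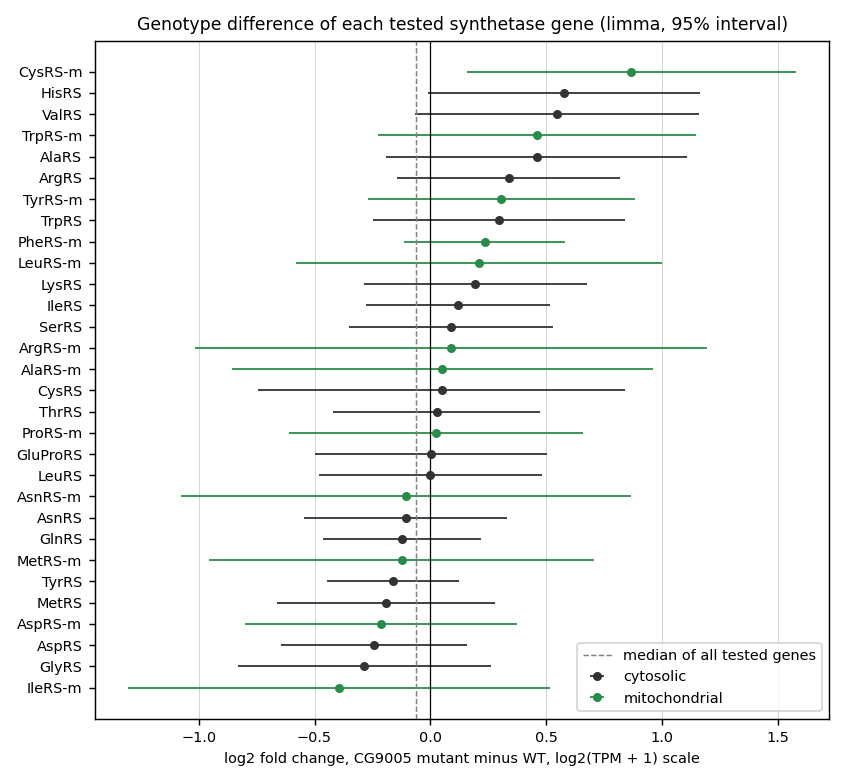
Log2 fold change of each tested synthetase gene, CG9005 mutant less WT in units of log2(TPM + 1), with its 95% interval from limma (4 libraries per group). The interval of CysRS-m alone leaves out 0 before adjustment, and the dashed line is the median of all tested genes at −0.06.

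CysRS-m, the mitochondrial cysteine enzyme, had the largest difference. It held 2.32, 3.14, 4.90 and 1.49 TPM in WT and 7.14, 6.87, 4.81 and 4.99 TPM in mutant libraries. Of the 4 mutant libraries, 3 lay above all WT libraries and the lowest lay just under WT replicate 3. The means were 2.96 ± 1.45 and 5.95 ± 1.22 TPM (mean ± SD, 4 libraries a group), with a log2 difference of 0.87, an SE of 0.32 and an adjusted p of 0.306 by limma. The gene (2R, 14159096 to 14161262, minus strand) shares 14.3% of its exon length with CG13016 on the opposite strand, which stood at 32.02 TPM in WT and 26.9 TPM in mutant libraries. The part of shared reads in the value of CysRS-m was not tested.

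HisRS (X, 18515428 to 18520445, plus strand), the histidine enzyme, held 7.54, 12.3, 17.7 and 12.3 TPM in WT and 20.6, 13.5, 19.0 and 21.2 TPM in mutant libraries. Its log2 difference was 0.58 (SE 0.27, adjusted p = 0.422 by limma), and 3 of 4 mutant libraries lay above all WT libraries. HisRS shares 8.91% of its exon length with Bx on the same strand, a gene at 6.99 TPM in WT and 7.42 TPM in mutant libraries. ValRS (2R, 13198850 to 13202709, plus strand), given by library above, had a log2 difference of 0.55 (SE 0.28, adjusted p = 0.482 by limma), again with 3 of 4 mutant libraries above all WT libraries.

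AlaRS (2L, 8378262 to 8381764, minus strand), the alanine enzyme, held 9.05, 20.8, 10 and 21.9 TPM in WT and 19.2, 20.6, 17.6 and 23.3 TPM in mutant libraries. Its WT libraries fell into a low pair and a high pair, and the mutant libraries lay near the high pair (log2 difference 0.46, SE 0.29, adjusted p = 0.604 by limma). ArgRS (X, 15841769 to 15844145, minus strand), the arginine enzyme, held 22.2, 22.6, 14.2 and 19.2 TPM in WT and 25.2, 18.4, 28.9 and 27.3 TPM in mutant libraries (log2 difference 0.34, SE 0.22, adjusted p = 0.607 by limma). For ArgRS 3 of 4 mutant libraries were above all WT libraries and mutant replicate 2 was below 3 of them.

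PheRS-m had means of 70.7 ± 8.15 TPM in WT and 83.7 ± 11.9 TPM in mutant libraries (mean ± SD, 4 libraries a group), a log2 difference of 0.23 (SE 0.16, adjusted p = 0.627 by limma). Mutant replicate 3, at 66.0 TPM, was the library of that group within the WT range. TrpRS-m (3L, 17849727 to 17852453, plus strand) held 1.19, 2.91, 2.16 and 3.39 TPM in WT and 3.00, 3.69, 3.24 and 4.33 TPM in mutant libraries (log2 difference 0.46, SE 0.31, adjusted p = 0.633 by limma). AspRS, with the only estimate below 0 among the 8 genes of smallest p, held 42.2, 56.1, 51.9 and 35.6 TPM in WT and 36.5, 41.6, 34.4 and 42.1 TPM in mutant libraries (log2 difference −0.24, SE 0.18, adjusted p = 0.673 by limma). The groups overlapped for all of these genes. With the stage field of the labels as a covariate, which largely follows genotype, the estimates of HisRS, AlaRS and TrpRS-m turned to −0.019, −0.17 and −0.30.

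The other 22 tested genes had adjusted p-values from limma of at least 0.695. TyrRS, the highest gene of the family and the one with the smallest error, had a 95% interval of −0.45 to 0.13. GluProRS and LeuRS had log2 differences of 0.00 with intervals of −0.50 to 0.50 and −0.48 to 0.48. GlyRS (−0.28) and IleRS-m (−0.39) were the most negative estimates, and mutant replicate 1 held the lowest GlyRS value, 18.8 TPM against 36.1 to 44.2 TPM in the other mutants. In the authors' deposited table none of the 33 genes was past an adjusted p of 0.05, where 0.579% of its 11058 genes were. The lowest adjusted p of a member in the authors' deposited table was 0.999999, and the test behind it is not given in the sources used here, so that count adds little.

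The error of a difference was larger for most mitochondrial genes, which were also the genes with fewer reads. The cytosolic genes had a median of 951 reads per library and a median SE of 0.22, and the mitochondrial genes a median of 97.1 reads and, for those tested, a median SE of 0.34. The SE ran from 0.13 for TyrRS to 0.50 for ArgRS-m, which had 7 to 147 reads per library. PheRS-m had an SE of 0.16. The order was not strict, since MetRS-m (54.8 reads, SE 0.38) had a smaller SE than AsnRS-m (82.1 reads, SE 0.44), and the parts of read count, level and the log scale in the SE were not tested.

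**Figure D4:**
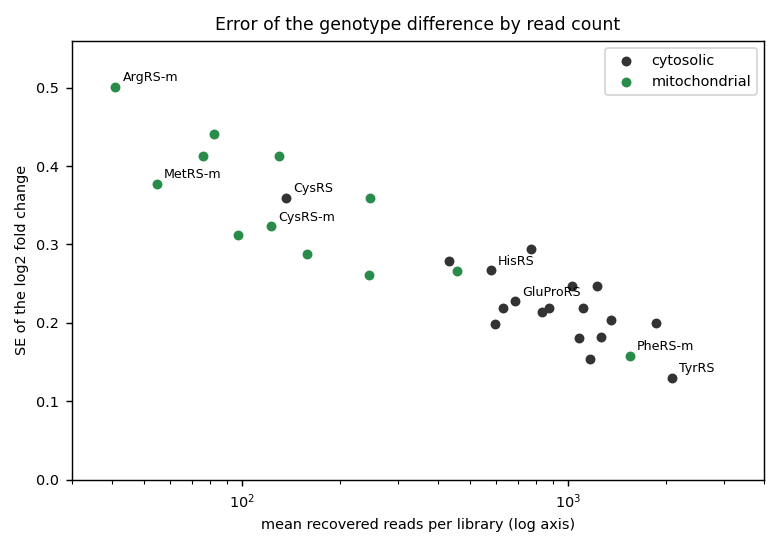
SE of the log2 difference of each of the 30 tested synthetase genes (y axis) against its mean recovered reads per library (x axis, log scale). The SE is 0.50 for ArgRS-m and 0.13 for TyrRS, and PheRS-m lies among the cytosolic genes.

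None of the 9 tested partner genes of the synthetases was called, against 1.67% of all tested genes. For so few genes a count of 0 is near that share and is not by itself a result about them. The means of all 10 partner genes ran from 0 TPM for GatC to 85.8 TPM for AIMP2. The scaffold proteins AIMP1, AIMP2 and AIMP3 hold the multisynthetase complex together in mammals. AIMP1 stood at 78.2 ± 9.64 TPM in WT and 65.6 ± 18.5 TPM in mutant libraries, AIMP2 at 88.1 ± 21.03 and 83.5 ± 10.1 TPM, and AIMP3 at 68.4 ± 13.7 and 78.0 ± 24.5 TPM (mean ± SD, 4 libraries a group). Each of these 6 group means was above the 42.6 TPM mean of AspRS, the highest synthetase of that complex. AIMP1 had a log2 difference of −0.29 (adjusted p = 0.665 by limma).

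Cytosolic phenylalanyl-tRNA synthetase is built from equal numbers of alpha and beta subunits. alpha-PheRS held 35.8, 45.3, 30.5 and 43.8 TPM in WT and 49.0, 46.2, 49.7 and 43.8 TPM in mutant libraries. beta-PheRS held 14.6, 7.76, 10.3 and 16.1 TPM in WT and 9.65, 7.90, 11.1 and 10.9 TPM in mutant libraries. The alpha transcript was the more abundant in all 8 libraries, by 2.46-fold to 5.85-fold. The mitochondrial enzyme, which works as a single chain, exceeded alpha-PheRS 1.33-fold to 2.34-fold and beta-PheRS 3.74-fold to 11.3-fold, in every library, so for phenylalanine the mitochondrial transcript was the most abundant of the 3. Between genotypes alpha-PheRS had a log2 difference of 0.29 (adjusted p = 0.558 by limma) and beta-PheRS one of −0.24 (adjusted p = 0.791 by limma).

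The tRNA-dependent amidation route makes mitochondrial glutaminyl-tRNA from glutamyl-tRNA through the subunits GatA, GatB and GatC. GatA reached 1.83 ± 1.72 TPM in WT and 3.51 ± 3.02 TPM in mutant libraries, and GatB 1.83 ± 0.806 and 1.96 ± 0.696 TPM. GatC was listed at 0 in all 8 libraries, but 100% of its exon length is shared with PolG2 on the same strand, and the part of this overlap in the 0 was not tested. GluRS-m, which supplies this route, had a lower mean (0.445 TPM) than GatA and GatB. Slimp, an insect mitochondrial relative of SerRS, was at 4.60 ± 2.77 and 4.69 ± 1.61 TPM, above SerRS-m in both genotypes. Of the 10 partner genes 9 were tested, with a median log2 difference of 0.11.

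**Figure D5:**
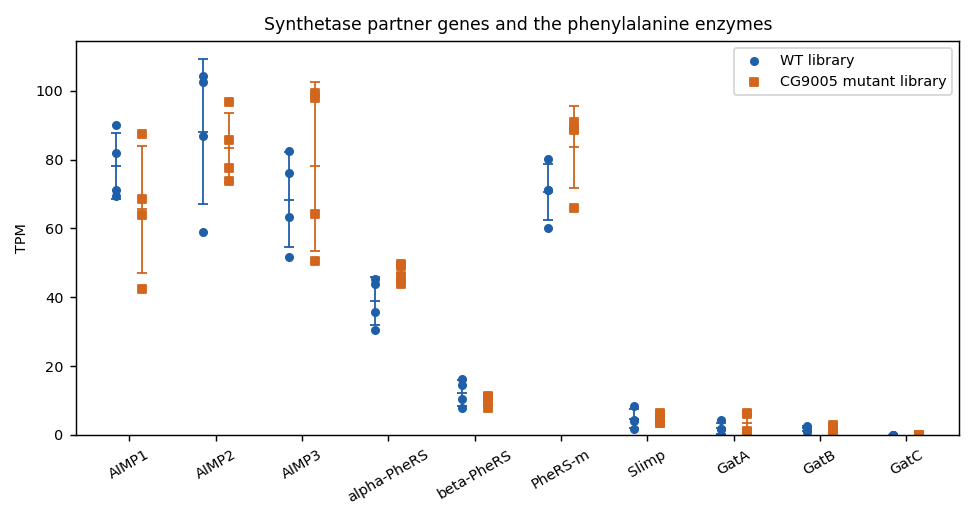
TPM of the synthetase partner genes and PheRS-m in WT (circles) and CG9005 mutant libraries (squares), with the group mean and SD (n = 4 each). By group mean the 3 AIMP genes and PheRS-m lie above alpha-PheRS and beta-PheRS lies below it, and GatC is listed at 0.

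No gene was called in the other lists of the pathway, against 1.67% of all tested genes. For such short lists a count of 0 is near that share and is not by itself a result about them. Of 11 tested genes for tRNA transcription and modification the median log2 difference was −0.02. Mt2, a methyltransferase of tRNA, stood at 4.18 ± 2.57 TPM in WT and 8.55 ± 2.18 TPM in mutant libraries (mean ± SD, 4 libraries a group), a log2 difference of 0.98 (adjusted p = 0.296 by limma). Bdp1, a subunit of the RNA polymerase III initiation factor, had one of −0.42 (adjusted p = 0.538 by limma). Neither passed the test.

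The amino acid response, in which uncharged tRNA activates the kinase Gcn2 and the transcription factor ATF4 (crc in the fly), induces synthetase genes in mammals. Its 8 tested genes had a median log2 difference of 0.07. crc stood at 9.56 ± 1.79 TPM in WT and 10.4 ± 1.48 TPM in mutant libraries (log2 difference 0.12, adjusted p = 0.897 by limma), and Gcn2 was near 1.40 TPM in both. The pseudokinase gene trbl had a log2 difference of −0.60 (adjusted p = 0.357 by limma), and Thor, the translation repressor 4E-BP, one of 0.52 (adjusted p = 0.526 by limma).

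Of 12 tested genes for amino acid transport and TOR signalling the median was 0.06. The amino acid transporter path had a log2 difference of −0.39 (adjusted p = 0.521 by limma), and Nprl3, a negative regulator of TOR, one of −0.47 (adjusted p = 0.647 by limma). Of 8 tested genes that deliver charged tRNA to the ribosome the median was −0.15. eEF1beta, the exchange factor of the elongation factor, stood at 2335 ± 64.9 TPM in WT and 2019 ± 135 TPM in mutant libraries (log2 difference −0.21, adjusted p = 0.355 by limma). eEF1delta had the same log2 difference, −0.21 (adjusted p = 0.675 by limma). The cytosolic factors eEF1alpha1, eEF1beta, eEF1gamma and eEF1delta, with means of 528 to 3308 TPM, stood above every synthetase. The mitochondrial factors mEFTu1 (63.6 TPM), mEFTu2 (23.9 TPM) and mEFTs (15.1 TPM) and the cytosolic eEF1alpha2 (2.39 TPM) lay within the range of the synthetases.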

How the data were processed

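The authors deposited 1 table of TPM per library (17494 genes, each column summing to 1000000) and a comparison table, in 4 identical copies of which 1 was used, with group means in TPM, log2 fold changes and p-values per the file headers. The tools named per the submitters' processing notes are R 3.4.4, limma, edgeR, HTSeq 0.5.4p3 and STAR 2.5.1b, and the build is BDGP6. What each tool did, whether strand was used and how overlapping genes were counted is not given in the sources used here. Multiplying TPM by union exon length (Ensembl release 115, BDGP6) gave whole reads, within 0.05 reads, for 98.8% to 99.0% of genes above 0 and for all 33 members in every library. TPM does not store the sequencing depth directly, so recovered reads are an estimate.

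The test was limma 3.58.1 (R 4.3.3) with its trend option, applied to log2(TPM + 1) with genotype as the only term and Benjamini-Hochberg adjustment over all 7827 tested genes. Fold changes on this scale understate the change of low genes. The chi-square per gene between replicates within a group was 36.8 to 114, so none was a repeat of another. Nothing says that replicates were separate collections, so p-values cover only how these samples vary, and that variation may be technical. Titles number replicates 1 to 4 in both groups, but nothing says that a number marks a shared origin. A developmental stage field counts from 11 to 18 across the libraries against stage 11 in the growth protocol, so it was used only as an alternative covariate. The pipeline was tested on simulated data.

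The members and the lists were chosen with earlier results of these data known. All members are named with their level. Values by library are given for the 8 members with the smallest p and for the 3 highest and 3 lowest tested members of each compartment. In each pathway list the 2 genes with the smallest p are named. GlyRS, IleRS-m, GluProRS, LeuRS, crc, Gcn2, MetRS-m's and AsnRS-m's SEs, the other elongation factors, the markers and the partner genes were named outside this rule after their values were seen. Protein and promoter features were not analysed here.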

Additional observations from a re-analysis of the deposited data

Results flagged for a closer look

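Of 60 groups of 4 libraries checked (30 tested genes in each genotype, on log2(TPM + 1)), 6 had a library that stood apart from the other 3 beyond Dixon's critical value. Chance flags about 1 in 20. GluProRS was lowest in WT replicate 3 (8.53 TPM, against 9.80 to 9.96 TPM in the others). ValRS was lowest in mutant replicate 2 (7.99 TPM, against 12.3 to 13.3 TPM). PheRS-m was lowest in mutant replicate 3 (66.0 TPM, against 88.8 to 90.9 TPM). ArgRS-m was highest in WT replicate 2 (3.93 TPM, against 0.175 to 0.402 TPM) and lowest in mutant replicate 1 (0.197 TPM, against 1.14 to 1.38 TPM). MetRS-m was also lowest in mutant replicate 1 (0.144 TPM, against 1.06 to 1.22 TPM).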

How the results depend on the processing

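No synthetase gene was called under any of the 19 alternatives, namely each library left out, the replicate block, the stage covariate, quantile normalization, median centring, no or a strict filter, pseudocounts of 0.1 and 5, no trend, array weights and voom. The lowest adjusted p of a member over them was 0.152, for CysRS-m without WT replicate 3. Of 150 values for the 8 genes with the smallest p, 147 kept their direction. The 3 others were reversed with the stage covariate, HisRS at −0.019, AlaRS at −0.17 and TrpRS-m at −0.30. The covariate largely follows genotype and the cause was not tested. The strict filter of 10 TPM left out CysRS-m and TrpRS-m.

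The count over all genes was 131. It was 52 with the replicate block, 9 with the stage covariate, 76 with no filter and 75 with the strict filter. Both filter settings test other genes. Array weights and median centring gave the highest counts, 178 and 136. With 1 library left out, where the filter also asked for 3 in place of 4 libraries and 8120 to 8179 genes were tested, it ran from 71 to 110, and was 72, 74, 86, 73 and 71 without WT replicates 1, 2 and 4 and mutant replicates 2 and 4. Deviations of same-numbered libraries had correlations of 0.077, −0.15, −0.039 and −0.043, and in 1 of 4 numbers both libraries correlated best with each other, so the replicate block rests on a shared number only.

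The ratio of summed cytosolic to mitochondrial TPM was 4.25 over the 8 libraries and 4.07 to 4.34 with 1 left out. Alternatives chosen after seeing the data gave 10.3 without PheRS-m and 8.55 over the 12 amino acids set side by side above. Leaving out the 5 genes that share at least 10% of their exon length with another gene gave 4.04. Low read counts, with a median of 97.1 reads per library, limit the counting precision of the mitochondrial genes.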

Other observations

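Neighbouring synthetase genes differed widely in level. GluRS-m (3L, 16415292 to 16417177) lies 171 bases from TyrRS (3L, 16417349 to 16419302) on the same strand, and the mean level of TyrRS was 201-fold that of GluRS-m.

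Several members share exon sequence with other genes, 16 of the 33 by at least 1 base. SerRS-m shares 13.9% of its exon length with Nagk on the opposite strand, which was at 155 to 293 TPM. ArgRS-m shares 11.8% with mRpS9 on the opposite strand, at 110 to 133 TPM. AspRS shares 63.9% with the antisense RNA CR45141, which was at most at 2.31 TPM, and GluProRS shares 16.6% with the antisense RNA CR46092, at most at 0.643 TPM. The strand setting of the authors' counts is not known, so reads of such partners cannot be told apart, and their part in the levels was not tested.

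The spread between libraries was smaller in the mutant for 13 of the 18 cytosolic genes (72.2%), with a median coefficient of variation of 21.5% in WT and 13.9% in the mutant. Of the 15 mitochondrial genes it was smaller in 8, with medians of 53.6% and 49.4%. Over all tested genes the same held for 64.3%, with medians of 31.1% and 24.1%.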
